A study of Mus musculus with 9 samples.

Results

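The antioxidant genes around the transcription factor NRF2, glutathione and thioredoxin were followed in mouse kidney cortex after a 16 h fast. The set was a list of 36 genes chosen by name: NRF2 and its inhibitor, NRF2 target enzymes, the enzymes that make, recycle and split glutathione, glutathione transferases and peroxidases, superoxide dismutases, thioredoxins with their reductases, sulfiredoxin and peroxiredoxins. The list was made with earlier results of these data known. All 36 were among the 23420 genes of the expression table, and 34 of them reached the mean of 10 normalized counts that testing required. RNA sequencing had been done on cortex from 9 male C57/BL6 mice kept on chow. The fed group (5 mice, Fed 1 to Fed 5) had free access to food, and the fasted group (4 mice, Fasted 1 to Fasted 4) had been without food for 16 h before the kidneys were taken. The labels give 1 library per mouse and no age, batch, litter or hour of collection.

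NRF2, encoded by Nfe2l2, is held in the cytoplasm and marked for destruction by KEAP1; when KEAP1 is modified by electrophiles or oxidants, NRF2 enters the nucleus, pairs with small MAF proteins and binds antioxidant response elements near genes for detoxifying and thiol-recycling enzymes. Glutathione and thioredoxin are the thiol systems that hand electrons from NADPH to peroxidases, transferases and peroxiredoxins, with separate thioredoxin pairs in the cytosol (Txn1 and Txnrd1) and in mitochondria (Txn2 and Txnrd2). In the kidney, the proximal tubule is rich in mitochondria, splits filtered glutathione at its brush border and makes the plasma glutathione peroxidase GPX3.

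Start-site sequences are shown for Nqo1, Srxn1, Txnrd1 and Txn2, which changed with fasting. Hmox1 and Gstt2 also changed but had no start-site window among those used. Prdx1, which did not pass the test, is shown as well, since its match fits both letter patterns searched for. The RefSeq windows are 300 bases around the gene's start on GRCm38.p6, read 5′ to 3′ on the gene's own strand. Bases in capitals match TGACNNNGC, the core letters of an antioxidant response element, or TGANTCAGC, a second pattern of the same length in which C or G at the N gives the AP-1 sequence TGACTCA or TGAGTCA, on either strand (GCNNNGTCA or GCTGANTCA). The second pattern was added after the windows had been read. The windows lie at chr8:107403156-107403455 on the minus strand for Nqo1, chr2:152105274-152105573 on the plus strand for Srxn1, chr10:82858956-82859255 on the plus strand for Txnrd1 (1 of its 3 windows), chr15:77928945-77929244 on the minus strand for Txn2 and chr4:116685349-116685648 on the plus strand for Prdx1.
Nqo1: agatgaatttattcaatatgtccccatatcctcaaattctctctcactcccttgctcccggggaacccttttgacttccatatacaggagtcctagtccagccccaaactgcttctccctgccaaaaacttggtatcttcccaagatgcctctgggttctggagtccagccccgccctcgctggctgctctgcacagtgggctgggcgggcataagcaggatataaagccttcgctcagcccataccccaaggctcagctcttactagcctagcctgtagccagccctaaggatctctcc
Srxn1: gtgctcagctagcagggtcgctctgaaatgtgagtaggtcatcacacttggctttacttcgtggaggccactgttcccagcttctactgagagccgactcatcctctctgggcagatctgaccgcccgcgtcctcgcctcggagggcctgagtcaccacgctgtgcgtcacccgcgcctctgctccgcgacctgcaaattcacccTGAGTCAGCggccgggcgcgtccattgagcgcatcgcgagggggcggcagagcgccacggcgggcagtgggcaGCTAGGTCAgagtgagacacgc
Txnrd1: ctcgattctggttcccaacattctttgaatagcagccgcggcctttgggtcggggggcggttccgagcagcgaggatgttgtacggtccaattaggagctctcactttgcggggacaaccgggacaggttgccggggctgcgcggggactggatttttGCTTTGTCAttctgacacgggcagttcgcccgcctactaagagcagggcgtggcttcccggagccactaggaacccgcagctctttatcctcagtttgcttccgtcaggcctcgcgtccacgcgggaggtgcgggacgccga
Txn2: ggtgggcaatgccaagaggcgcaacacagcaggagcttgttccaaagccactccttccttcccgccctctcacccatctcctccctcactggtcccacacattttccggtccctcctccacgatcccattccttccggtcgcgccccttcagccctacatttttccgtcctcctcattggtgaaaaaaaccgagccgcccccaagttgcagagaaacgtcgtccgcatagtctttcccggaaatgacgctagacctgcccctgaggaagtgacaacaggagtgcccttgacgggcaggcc
Prdx1: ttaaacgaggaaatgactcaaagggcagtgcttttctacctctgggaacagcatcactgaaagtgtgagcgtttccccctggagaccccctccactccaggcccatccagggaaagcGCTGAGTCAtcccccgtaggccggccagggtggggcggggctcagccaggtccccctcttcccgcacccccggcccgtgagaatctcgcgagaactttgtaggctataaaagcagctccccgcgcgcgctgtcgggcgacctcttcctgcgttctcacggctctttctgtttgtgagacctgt
The Srxn1 window holds TGAGTCAGC from base 206 and GCTAGGTCA from base 279, the Txnrd1 window GCTTTGTCA from base 159, and the Prdx1 window GCTGAGTCA from base 118. The windows of Nqo1 and Txn2 and the other 2 windows of Txnrd1 hold no match, which says only that these letters are not within them. Of the 29 members with a window, 9 (31.0%) had at least 1 window with TGACNNNGC, against 3781 of 27025 genes (13.99%). For TGANTCAGC there were 3 members (10.3%), against 369 genes (1.37%). Because this second pattern was added after the windows had been read, its share among members is no test of a difference. The share for TGACNNNGC is none either, since NRF2 target enzymes were put in the list by name. Genes with more windows also had more chances of a match. Over single windows, 4071 of 32851 (12.4%) held TGACNNNGC and 390 (1.19%) TGANTCAGC, 175 held both, and 270 held a TGANTCAGC match that includes the AP-1 letters. A match is a run of letters and was not tested as a binding site.

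In the fasted kidneys 5 antioxidant genes rose and 1 fell. Those that rose were Nqo1, Hmox1, Srxn1, Txnrd1 and the glutathione transferase gene Gstt2; the one that fell was Txn2, the mitochondrial thioredoxin. The enzymes that make and recycle glutathione, all 3 glutathione peroxidases, all 3 superoxide dismutases and all 5 peroxiredoxins tested had no member past the threshold. Levels are normalized counts, which are the authors' read counts divided by 1 factor per library, changes are fasted over fed on the log2(value + 1) scale with their standard error (SE), and a gene was called at a Benjamini-Hochberg adjusted p under 0.05 from limma over all 15098 genes tested. Of the 34 members tested, 14.7% were called higher, where 5.72% of all tested genes were. Called lower were 2.94% of the members tested and 5.25% of all tested genes. The members were chosen with earlier results of these data known, so these shares are no independent test. The median log2 change was 0.06 over the members and 0.00 over all tested genes, with 21 members above 0 and 13 below. At an unadjusted p under 0.05 from limma, 8 of the 34 tested members were higher and 2 lower. Of all tested genes, 13.5% were higher and 13.3% lower at that p.

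**Figure D1:**
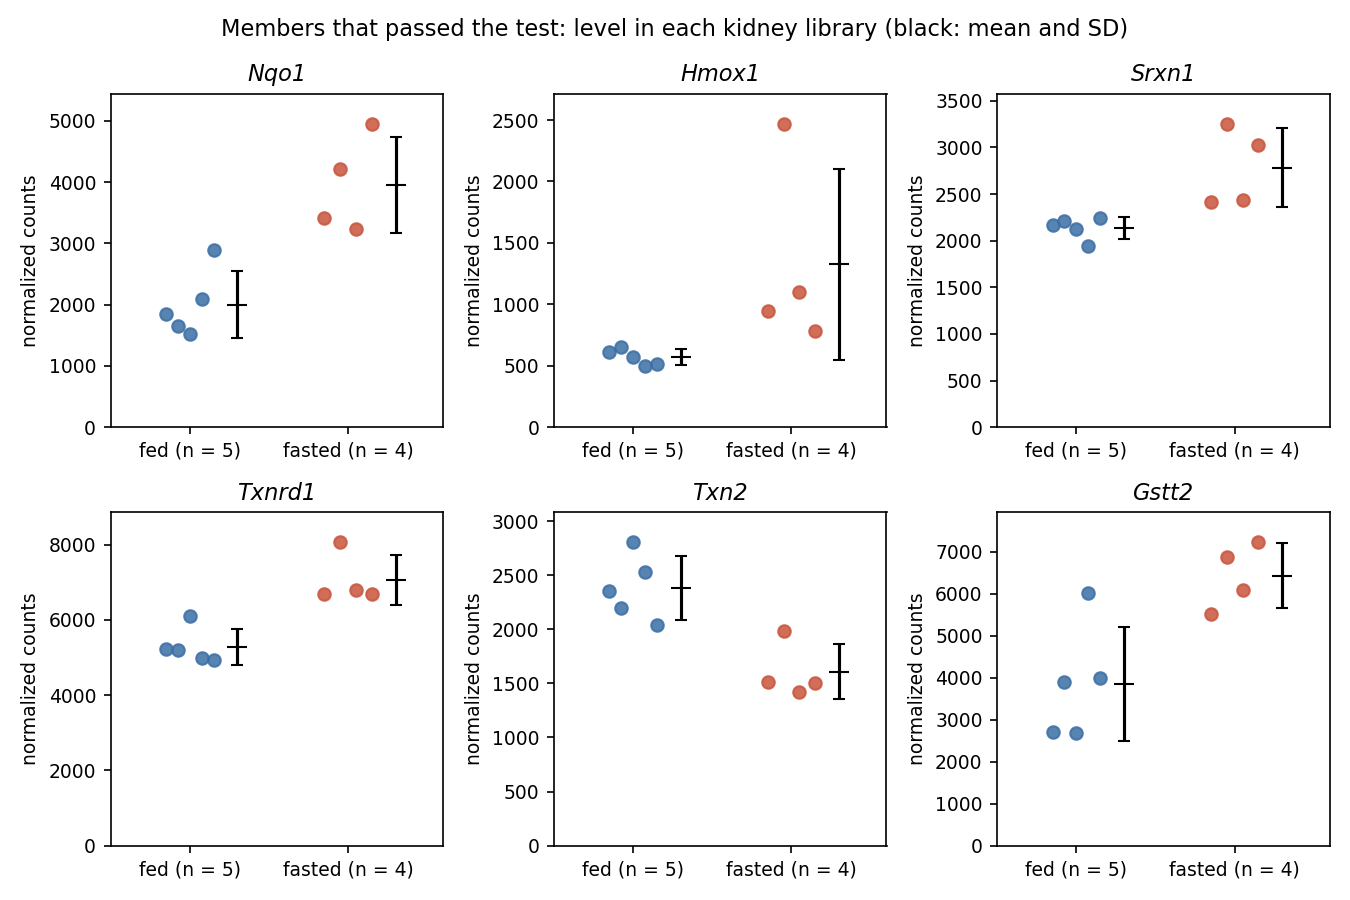
Normalized counts (y axis, from 0) of the 6 called members in each of the 5 fed and 4 fasted mice (points, with the group mean and SD as bars). All 4 fasted points lie above all 5 fed points for Nqo1, Hmox1, Srxn1 and Txnrd1 and below them for Txn2, while Fed 4 lies among the fasted points for Gstt2.

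Counted reads per library ranged from 19638174 to 32469467 among fed and from 18902645 to 27186745 among fasted mice, so that 1 read was worth 0.744 to 1.32 normalized counts. Fed 3 stood apart, its ribosomal RNA entry Rn45s taking 5.53% of the library, against 0.513% to 2.36% in the other 8 libraries. Proximal tubule markers were high throughout, with a summed level of 459947 to 635409 in the fed and 404645 to 468767 in the fasted libraries. Of these 8 markers 1 was called higher (Slc13a3) and 1 lower (Slc34a1), and 3 of the 4 fasted sums lay below all fed sums; the part of this in the results on antioxidant genes was not tested. The sum rested mostly on Lrp2 (means of 271792 fed and 196593 fasted) and Slc34a1 (147200 and 96907), the highest of the 8 markers. Log2 changes were -0.27 for Aqp1, -0.30 for Slc5a12 and -0.35 for Slc5a2. They were -0.05 for Cubn, 0.14 for Slc22a6 and 0.41 for Slc13a3, so the fall of the sum did not hold for every marker. In whole cortex, fewer cells of a type and less RNA per cell cannot be told apart, and changes of single marker genes were not tested apart from these. Of the 8 genes listed for red blood cells, 6 were among the genes of the expression table. Of these, the 4 haemoglobin genes Hba-a1, Hba-a2, Hbb-b1 and Hbb-b2 were at 0 in every library. The summed level of the list was 249 to 569 in the fed and 340 to 502 in the fasted libraries. Why the 4 genes were at 0 was not tested, and their zeros give no measure of blood in the kidneys.

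NRF2 itself and its inhibitor were not called. Nfe2l2 (chr2:75675513-75704641) had 2277, 2108, 2322, 2057 and 2143 normalized counts in Fed 1 to 5 and 2852, 2126, 2470 and 2635 in Fasted 1 to 4. Fasted 1, 3 and 4 lay above every fed library and Fasted 2 within the fed range, and the log2 change of 0.20 (SE 0.08, 95% interval 0.02 to 0.39) had an adjusted p of 0.149. Without Fasted 2 Nfe2l2 was called (log2 change 0.28, adjusted p = 0.0409). Keap1, which encodes the adaptor that sends NRF2 to the proteasome, had means of 1108 ± 87.5 (SD, n = 5) fed and 1233 ± 83.5 (n = 4) fasted and a log2 change of 0.16 (SE 0.08, adjusted p = 0.228).

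Nqo1, Hmox1 and Srxn1, classical NRF2 target genes, rose. Nqo1 (chr8:107388225-107403206, minus strand) encodes a quinone reductase that uses NADPH or NADH to reduce quinones without forming radicals. It had 1847, 1652, 1514, 2084 and 2898 normalized counts in Fed 1 to 5 and 3417, 4214, 3242 and 4951 in Fasted 1 to 4. Every fasted library lay above every fed library, Fed 5 being the highest of the fed. The mean was 1999 ± 546 fed and 3956 ± 787 fasted, and the log2 change was 1.002 (SE 0.18, adjusted p = 0.00651). Every fasted library lay above every fed library for 7.62% of all tested genes and for 4 members.

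Hmox1 (chr8:75093621-75100589, plus strand) encodes the inducible haem oxygenase, which opens haem to biliverdin, iron and carbon monoxide. It had 610, 655, 571, 499 and 518 normalized counts in Fed 1 to 5 and 944, 2469, 1102 and 782 in Fasted 1 to 4. The groups did not overlap, and Fasted 2 stood far above every other library. The log2 change was 1.07 (SE 0.27, adjusted p = 0.0273) over all libraries and 0.72 (adjusted p = 0.00999) without Fasted 2. Fasted 2 also had the highest sum of the hepatocyte markers (86828 against 57069 to 73882 in the fed libraries, 0 of 8 called) while its macrophage marker sum was the lowest (1740 against 1993 to 2786 in the fed libraries, 0 of 6 called). The adipocyte marker sum was 513 to 792 in the fed and 790 to 1117 in the fasted libraries, with Plin1 and Fabp4 of the 5 markers called higher, Plin1 at its highest in Fasted 2 (70.7 normalized counts) and Adipoq near 0 (means of 0.795 fed and 0.920 fasted). The part of these other cell types in the Hmox1 level was not tested. The call was lost when Fed 1 (adjusted p = 0.0535), Fed 4 (0.0526) or Fasted 3 (0.0565) was left out.

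Srxn1 (chr2:152105516-152111376, plus strand) encodes sulfiredoxin, which returns over-oxidised peroxiredoxins to service. It had 2167, 2212, 2128, 1939 and 2240 normalized counts in Fed 1 to 5 and 2419, 3253, 2436 and 3024 in Fasted 1 to 4. The fasted libraries were all above the fed, Fasted 2 and Fasted 4 by the widest margin. The log2 change was 0.37 (SE 0.10, adjusted p = 0.0308), from 2137 ± 119 to 2783 ± 421. Srxn1 no longer passed when any of the libraries Fed 1 (0.0617), Fed 2 (0.0529), Fed 4 (0.0592), Fasted 2 (0.0733) or Fasted 4 (0.103) was left out (adjusted p in brackets).

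The genes of glutathione synthesis, recycling and breakdown stayed short of the threshold. Gclm, the modifier subunit of the rate-limiting glutamate-cysteine ligase, had 5936 ± 341 normalized counts fed and 5928 ± 223 fasted, and the 95% interval of its log2 change ran from -0.14 to 0.13. Gclc, the catalytic subunit of the same ligase, had 7681 ± 1284 fed and 8658 ± 585 fasted (log2 change 0.19, 95% interval -0.06 to 0.43, adjusted p = 0.321). Both ligase subunits are textbook NRF2 targets. Gss, the synthetase of the next step, had a log2 change of -0.07 (95% interval -0.22 to 0.08). Gsr, the reductase that turns oxidised glutathione back, had one of 0.05 (95% interval -0.13 to 0.23). For Ggt1, the brush border enzyme that splits filtered glutathione, it was -0.11 (95% interval -0.36 to 0.13). Slc7a11, the cystine importer, was under the filter, with 11.8 ± 7.18 normalized counts fed and 6.31 ± 1.38 fasted, and was not tested.

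**Figure D2:**
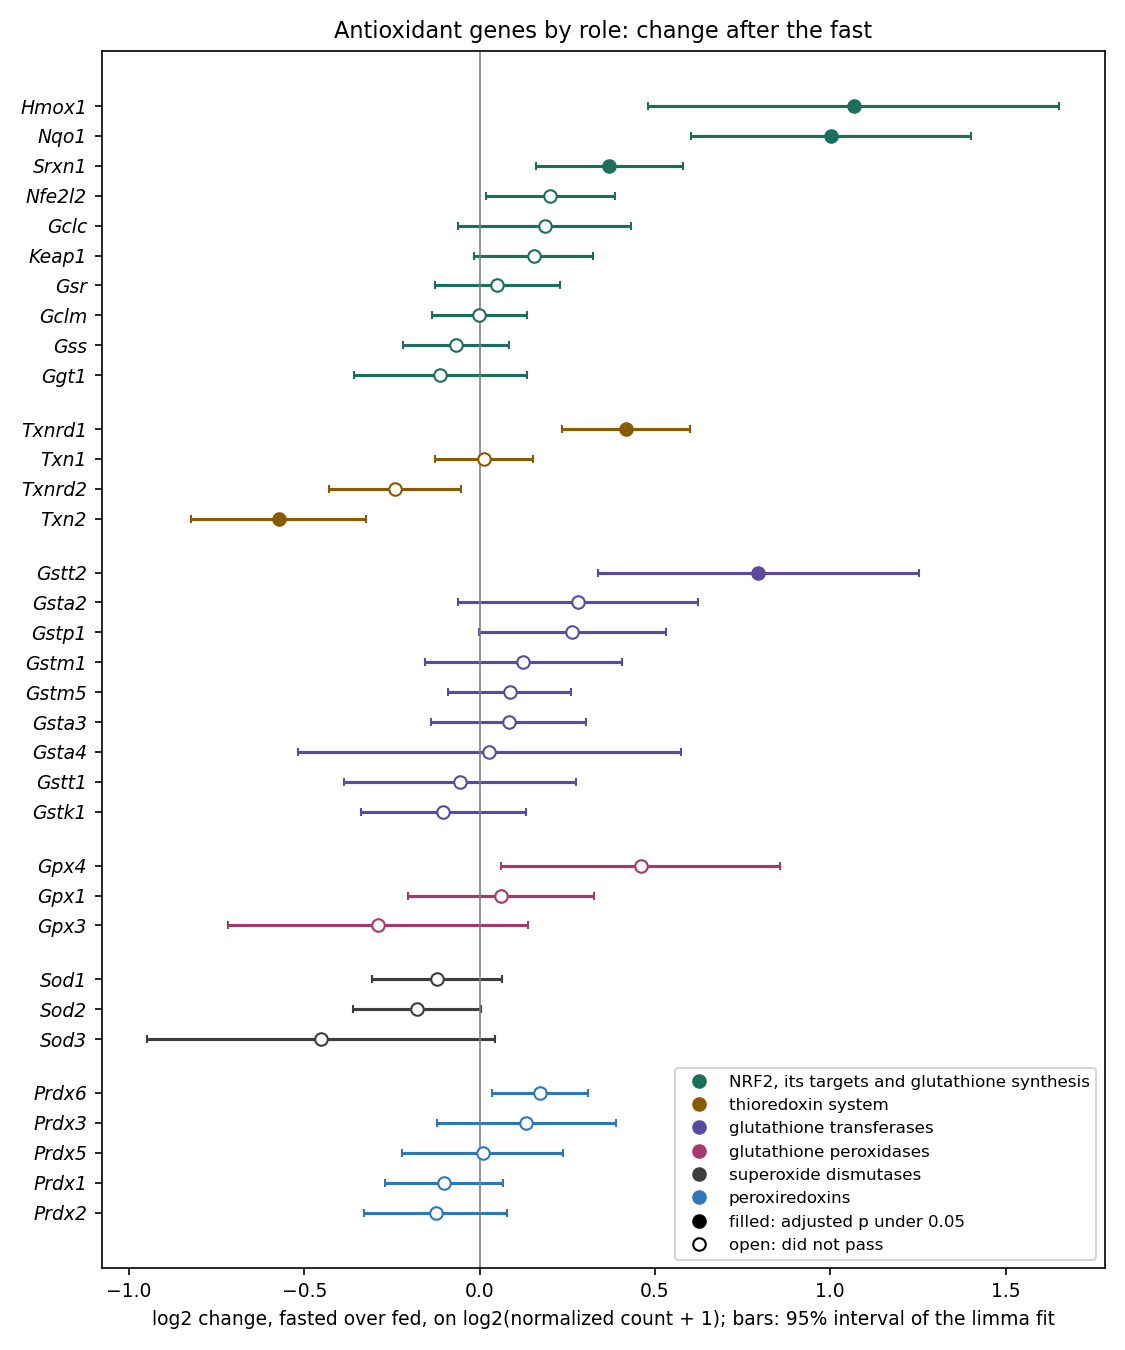
Log2 change (x axis, fasted over fed, on the log2(value + 1) scale) with its 95% interval for each of the 34 tested members, grouped by role, with filled points for called members. The 6 called members run from -0.57 for Txn2 to 1.07 for Hmox1, and 22 of the 34 intervals lie wholly within 0.5 of 0.

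Of the thioredoxin system, the cytosolic reductase rose and the mitochondrial thioredoxin fell. Txnrd1 (chr10:82833951-82897712, plus strand) encodes the selenoenzyme that reduces cytosolic thioredoxin with NADPH. It had 5220, 5186, 6112, 4978 and 4929 normalized counts in Fed 1 to 5 and 6686, 8060, 6804 and 6681 in Fasted 1 to 4. The fasted libraries were all above the fed, with Fed 3 the highest of the fed and Fasted 2 the highest of the fasted. The log2 change was 0.42 (SE 0.08, adjusted p = 0.0103), from 5285 ± 479 to 7058 ± 670, and it was called in all 20 alternatives tried.

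Txn2 (chr15:77915047-77929006, minus strand) encodes the thioredoxin of the mitochondrial matrix, which feeds electrons to the peroxiredoxins there. It had 2353, 2196, 2803, 2528 and 2041 normalized counts in Fed 1 to 5 and 1517, 1981, 1422 and 1504 in Fasted 1 to 4. Every fasted library lay below every fed library, which held for 6.64% of all tested genes, and Fasted 2 came closest to the fed range. Txn2 fell by 0.57 on the log2 scale (SE 0.11, adjusted p = 0.00979), from 2384 ± 296 to 1606 ± 253.

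Txnrd2, the reductase of the mitochondrial pair, had 484, 494, 564, 479 and 433 normalized counts in Fed 1 to 5 and 385, 407, 435 and 429 in Fasted 1 to 4. Of the fasted libraries, 3 lay below every fed library and Fasted 3 just above Fed 5. Its log2 change of -0.24 (SE 0.09, 95% interval -0.43 to -0.05) had an adjusted p of 0.0989 and did not pass. Txn1, the cytosolic thioredoxin, had 4074 ± 186 fed and 4111 ± 272 fasted (95% interval of the log2 change -0.13 to 0.15).

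Within each mouse, the cytosolic member was set against the mitochondrial one; this comparison was chosen after the values had been seen. The log2 ratio of Txn1 to Txn2 was 0.87, 0.83, 0.55, 0.73 and 0.92 in Fed 1 to 5 and 1.34, 1.11, 1.47 and 1.55 in Fasted 1 to 4. The log2 ratio of Txnrd1 to Txnrd2 was 3.43, 3.39, 3.43, 3.38 and 3.51 in the fed and 4.11, 4.30, 3.96 and 3.96 in the fasted mice. Both ratios were higher in every fasted mouse than in any fed mouse, by 0.58 and 0.66 on average. No test is given, since the single genes already showed these differences. A ratio of reads of 2 genes also carries their lengths, so that its level is no ratio of molecules.

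**Figure D3:**
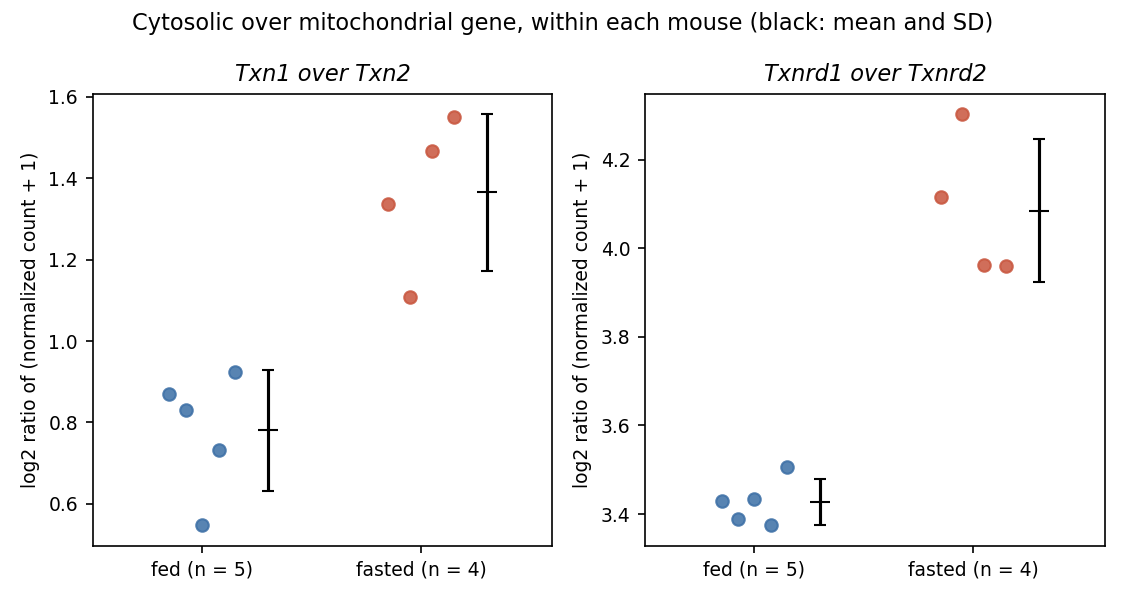
Log2 ratio (y axis) of cytosolic to mitochondrial thioredoxin (Txn1 over Txn2) and thioredoxin reductase (Txnrd1 over Txnrd2) in each fed and fasted mouse. The fed mice span 0.55 to 0.92 and 3.38 to 3.51, and the fasted mice 1.11 to 1.55 and 3.96 to 4.30.

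Glutathione transferases join glutathione to electrophiles. Of the 9 tested, 1 was called. Gstt2 (chr10:75831114-75837424, minus strand), of the theta class, had 2710, 3896, 2676, 6020 and 4002 normalized counts in Fed 1 to 5 and 5512, 6889, 6091 and 7228 in Fasted 1 to 4. The groups overlapped through Fed 4, which lay above Fasted 1. The log2 change was 0.79 (SE 0.21, adjusted p = 0.0335), from 3861 ± 1361 to 6430 ± 775. The call was lost when any of the libraries Fed 1 (0.0740), Fed 2 (0.0562), Fed 3 (0.0565), Fasted 1 (0.0520), Fasted 2 (0.0847), Fasted 3 (0.0661) or Fasted 4 (0.103) was left out (adjusted p in brackets).

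The other 8 tested transferases had log2 changes from -0.10 (Gstk1, the mitochondrial and peroxisomal kappa class) to 0.28 (Gsta2, alpha class). The Gsta2 value leaned on Fasted 4, which had 3623 normalized counts against 2115 to 2329 in the other fasted and 1661 to 2384 in the fed libraries. Without Fasted 4 its log2 change was 0.10 (adjusted p = 0.638). Gstp1 (pi class) had the smallest adjusted p of the 8, 0.190, with a log2 change of 0.26 (95% interval -0.00 to 0.53). Gsta4, the alpha member that takes lipid aldehydes such as hydroxynonenal, had the widest spread among fed mice of all members tested, with Fed 1 at 1163 and the other 4 fed mice between 415 and 570. Gsta3 (0.08), Gstm1 (0.13), Gstm5 (0.09) and Gstt1 (-0.06) also had log2 changes short of the threshold. Gstm3 had 2.79 ± 2.16 normalized counts fed and 0.917 ± 0.727 fasted and was not tested. Near-identical copies share sequence. Of the 50-base windows, 64.2% of Gsta2, 62.3% of Gstp1 and 23.15% of Gstm1 also occur in another gene's transcripts, chiefly Gsta1 and Gstp2 for the former pair. How reads from such windows were counted was not tested, and the values of these genes are uncertain to that extent.

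The glutathione peroxidases, which reduce hydrogen peroxide and lipid peroxides with glutathione, included the most abundant members. Per kb of exon, Gpx3 had 114321 ± 36582 normalized counts fed and 90748 ± 7347 fasted and ranked 5 among 21827 genes. Gpx1, the cytosolic peroxidase, ranked 12, with 25235 ± 3908 per kb fed and 26149 ± 2248 per kb fasted. Neither was called. The Gpx3 log2 change was -0.29 (SE 0.19, adjusted p = 0.376) with Fed 3, whose 325298 normalized counts stood above the 168310 to 187236 of the other fed libraries. Without Fed 3 it was -0.11 (adjusted p = 0.614). Gpx1 had a log2 change of 0.06 (95% interval -0.20 to 0.33).

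Gpx4, the selenoenzyme that reduces lipid peroxides inside membranes, had the smallest p of the peroxidases. It had 726, 813, 428, 798 and 673 normalized counts in Fed 1 to 5 and 776, 1129, 837 and 987 in Fasted 1 to 4. Fasted 1 lay within the fed range and Fed 3 was the lowest library. The log2 change was 0.46 (SE 0.18, 95% interval 0.06 to 0.86, adjusted p = 0.131), and 0.30 without Fed 3 (adjusted p = 0.136). The pseudogene Gpx4-ps2 shares 61.7% of the 50-base windows of Gpx4, and the Gpx4 values are uncertain to that extent.

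Superoxide dismutases turn superoxide into hydrogen peroxide, and all 3 had log2 changes below 0 without passing the test. Sod2, the manganese enzyme of mitochondria, had 9842, 9451, 9057, 9724 and 7538 normalized counts in Fed 1 to 5 and 7887, 8386, 8211 and 7644 in Fasted 1 to 4. The other 4 fed libraries lay above all fasted ones, and Fed 5 lay below them. The log2 change was -0.18 (SE 0.08, adjusted p = 0.198), and without Fed 5 it was -0.25 and called (adjusted p = 0.0246). Sod1, the cytosolic copper-zinc enzyme, had a log2 change of -0.12 (95% interval -0.31 to 0.06), and 23.1% of its windows occur in another gene. Sod3, the extracellular enzyme, had one of -0.45 (95% interval -0.95 to 0.04), which was -0.25 (adjusted p = 0.307) without Fed 3, whose 8387 normalized counts stood above the 3633 to 4911 of the other fed libraries.

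Peroxiredoxins, the thiol peroxidases that thioredoxin reduces, had log2 changes between -0.13 and 0.17. Prdx6, the peroxiredoxin that uses glutathione instead of thioredoxin, had 4723, 4876, 4381, 5177 and 4512 normalized counts in Fed 1 to 5 and 5153, 5257, 5434 and 5459 in Fasted 1 to 4. Fed 4 alone of the fed libraries reached into the fasted range, just above Fasted 1. Its log2 change of 0.17 (SE 0.06, 95% interval 0.03 to 0.31) had an adjusted p of 0.104. Prdx3, the mitochondrial substrate of Txn2, had 4665 ± 791 fed and 5061 ± 310 fasted (log2 change 0.13, 95% interval -0.12 to 0.39). Prdx5, found in mitochondria, peroxisomes and cytosol, had a log2 change of 0.01 (95% interval -0.22 to 0.24). Prdx1 and Prdx2, the cytosolic pair, had log2 changes of -0.10 and -0.13, and Prdx2 was called without Fed 5 (-0.21, adjusted p = 0.0417), whose 2263 normalized counts were the lowest of all libraries.

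**Figure D4:**
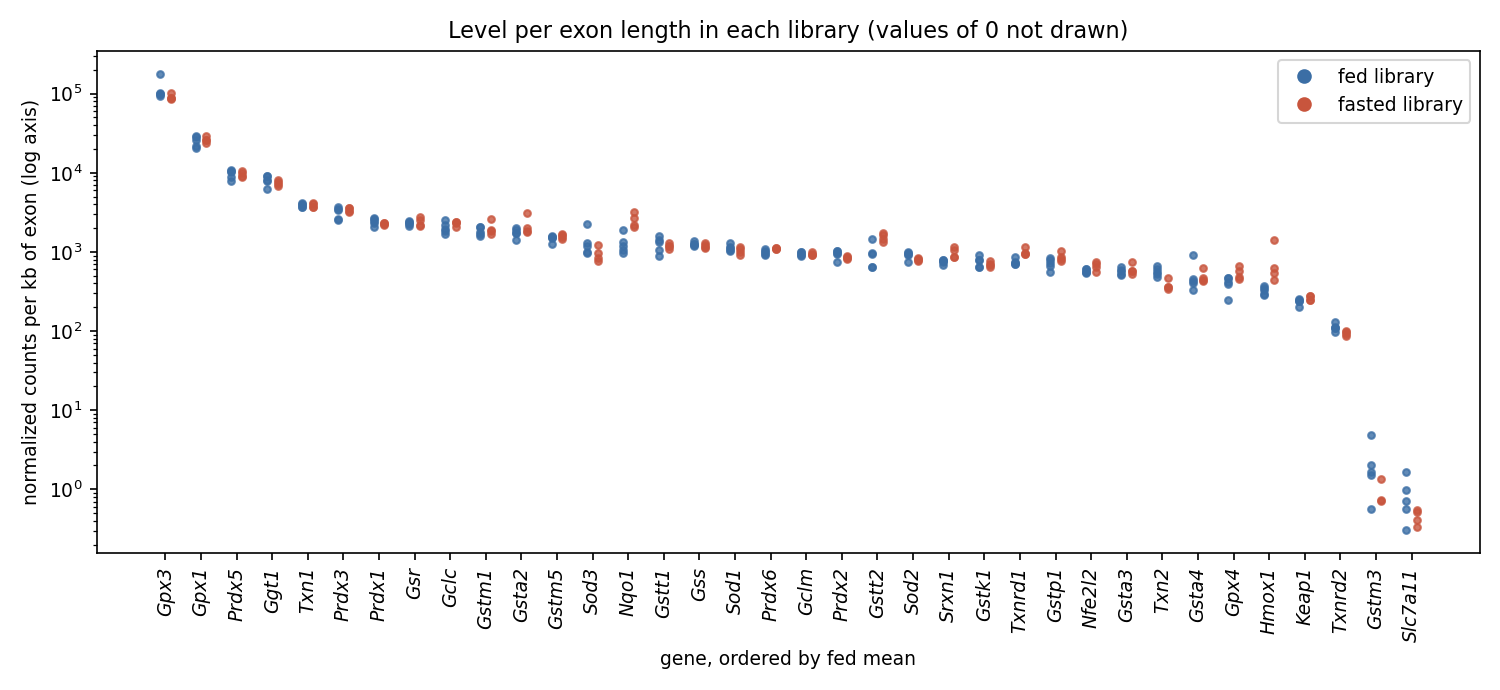
Level of each member in normalized counts per kb of exon (log axis), with a point for each fed and fasted library. Values of 0 are not drawn. Group means of the tested members run from 111.5 fed and 94.1 fasted for Txnrd2 to 114321 fed and 90748 fasted for Gpx3. The untested Slc7a11 and Gstm3 lie lower, with fed means of 0.848 and 2.13.

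Per kb of exon, the order of the members below Gpx3 and Gpx1 began with Prdx5 (9609 ± 1226 fed), Ggt1 (8108 ± 1149), Txn1 (3876 ± 177) and Prdx3 (3156 ± 535). The length used covers all annotated exons of a gene and can exceed that of its transcript. Sod1 has 3970 such bases, while its longest coding transcript holds 592 windows of 50 bases. The order therefore holds for this measure of length only. At 1 SD either side, the fed levels of Prdx5 and Ggt1 overlapped and those of Txn1 and Prdx3 nearly met. Txn2 (566.5 ± 70.4 per kb) and Txnrd2 (111.5 ± 10.8 per kb) lay below their cytosolic counterparts Txn1 and Txnrd1 (746 ± 67.6 per kb) in the fed kidneys. Spread among mice differed by member: the coefficient of variation in the fed group ran from 4.57% (Txn1) to 46.6% (Gsta4), and in the fasted group from 2.21% (Prdx1) to 58.5% (Hmox1). The members also leaned together in some libraries. In Fed 5, 27 of the 34 tested members were below their group mean on the log2 scale, where 49.4% of all tested genes were. In Fasted 1, 30 of the 34 were, where 51.6% of all tested genes were.

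**Figure D5:**
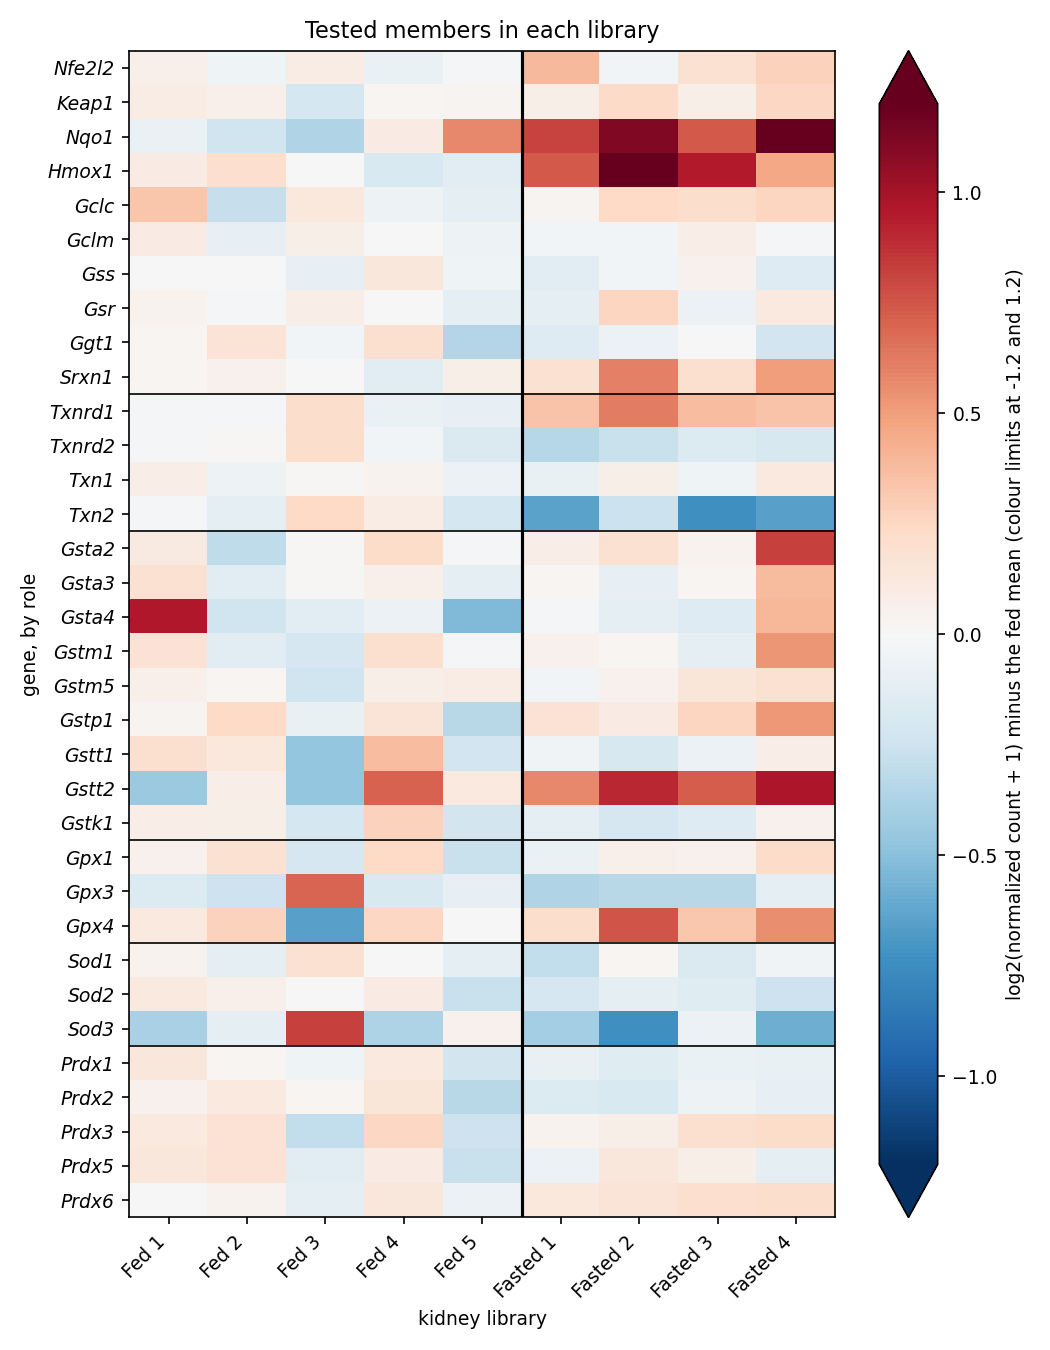
Log2 level of each tested member in each library minus the mean of the fed libraries (colour), with rows ordered by role and columns by group. Nqo1, Hmox1, Srxn1 and Txnrd1 are above the fed mean in all 4 fasted libraries, Txn2 is below it in all 4, and Gpx3 and Sod3 are high in Fed 3.

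Further genes of these pathways, from lists that hold no member, were counted by the same test, and their counts are read beside the 5.72% of all tested genes called higher and the 5.25% called lower. The lists were chosen with earlier results of these data known, so their counts are no independent test. Of the NRF2 partners and targets outside the set (27 listed, 26 tested), 11 were higher and 0 lower. Their median log2 change was 0.40. Sqstm1, the autophagy receptor that also ties up KEAP1, had 13451, 14755, 13068, 14151 and 13602 normalized counts in Fed 1 to 5 and 18118, 24563, 19050 and 21523 in Fasted 1 to 4. The groups did not overlap, and the log2 change was 0.58 (SE 0.09, adjusted p = 0.00314). Entpd5, a nucleoside diphosphatase of the endoplasmic reticulum, rose by 0.55 (SE 0.09, adjusted p = 0.00413). Cbr3, a carbonyl reductase, rose from 30.9 ± 14.6 to 120 ± 44.7 normalized counts (log2 change 1.96, SE 0.34, adjusted p = 0.00550). Ephx1, the microsomal epoxide hydrolase, rose by 0.50 (SE 0.09, adjusted p = 0.00594). The 7 others, named here after their values were seen, were Trim16, Blvrb, Bach1, Blvra, Mafk, Ugdh and Abcc4, with log2 changes from 0.26 (Bach1, a repressor that competes with NRF2 for its sites) to 0.85 (Abcc4, an efflux pump). The 15 genes of this list that were not called had log2 changes from -0.23 (Osgin1) to 0.87 (Abcc3). Among those 15 were the ferritin genes Fth1 (-0.09) and Ftl1 (0.10).

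Of the genes that supply NADPH (14 listed, 13 tested), 1 was higher and 0 lower, near the share among all tested genes, with a median log2 change of -0.01. That gene was H6pd, the hexose 6-phosphate dehydrogenase of the endoplasmic reticulum, with 8317 ± 537 normalized counts fed and 11414 ± 607 fasted (log2 change 0.46, SE 0.07, adjusted p = 0.00225). Of the genes for other steps of glutathione use and turnover (31 listed, 28 tested), 3 were higher and 1 lower, with a median of 0.02. Oplah, the oxoprolinase that returns glutamate from the glutathione cycle, rose by 1.13 (SE 0.15, adjusted p = 0.00139), and every fasted library lay above every fed library. Mgst1, a microsomal transferase and peroxidase, rose by 1.15 (SE 0.27, adjusted p = 0.0197), with Fed 5 (3379 normalized counts) above Fasted 1 and Fasted 3. Glrx, the cytosolic glutaredoxin, rose by 0.32 (SE 0.09, adjusted p = 0.0427). Ggct, the cyclotransferase that makes oxoproline, fell by 0.76 (SE 0.21, adjusted p = 0.0379), with Fed 5 (325 normalized counts) inside the fasted range of 301 to 383.

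Of the list of thioredoxin-fold genes, sestrins, catalase and methionine sulfoxide reductases (15 listed and tested), 4 were higher and 0 lower, with a median log2 change of 0.11. Sesn2, a stress-induced sestrin, rose by 0.72 (SE 0.12, adjusted p = 0.00478). Txnip, which binds and blocks thioredoxin, rose from 8836 ± 3678 to 20825 ± 3141 normalized counts (log2 change 1.35, SE 0.30, adjusted p = 0.0175). Cat, the peroxisomal catalase, had 28860, 30175, 27313, 33822 and 30431 normalized counts in Fed 1 to 5 and 38564, 35952, 37166 and 42484 in Fasted 1 to 4. The fasted libraries were all above the fed, and Cat rose by 0.36 (SE 0.09, adjusted p = 0.0252). Sesn1, a sestrin induced by p53, rose by 0.39 (SE 0.10, adjusted p = 0.0291).

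In the authors' deposited table the same 6 members had an adjusted p under 0.05, which 16.0% of its genes with an adjusted p had. In the authors' deposited table that p was 5.73e-06 for Nqo1, 0.000123 for Txn2, 0.000154 for Txnrd1, 0.00425 for Srxn1, 0.00485 for Gstt2 and 0.0050 for Hmox1. The authors' deposited table of annotation terms, made from genes they chose on these samples, lists 96 genes for oxidation reduction at 2.04-fold enrichment (Benjamini p of 3.01e-08), among them Nqo1, Hmox1, Txnrd1, Txn2 and Srxn1. For the oxidoreductase keyword the authors' deposited table lists 89 genes (2.27-fold, Benjamini p of 7.10e-11), 4 of them members. The authors' deposited table lists 15 genes for the response to oxidative stress, at 2.46-fold enrichment, with a Benjamini p of 0.181. In the authors' deposited table Nqo1, Hmox1, Txnrd1 and Srxn1 are among those 15, and Txnrd1 and Txn2 are among the 10 genes of cell redox homeostasis (2.30-fold, Benjamini p of 0.587).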

How the data were processed

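Kidney cortex RNA from 9 mice was sequenced, with 1 library per mouse. Mice in a group are the replicates, numbered in the order of deposit. The p-values from limma set the difference between groups against the spread between these mice, which limma moderates over all genes tested. The authors' p-values for annotation terms come from lists of genes instead. FastQC, TopHat2 2.0.9, HTSeq 0.9.1 and DESeq2 (version given as 3.5) were used, per the submitters' processing notes, where mm10 appears as a genome build together with hg19. The annotation used for counting, and whether strand was used, are not given in the sources used here. By a test on the values, the 9 sample columns hold a deposited signal made of read counts that the authors divided by 1 factor per library: 161194 of 161194 values above 0 were whole reads within 0.01, and 0 sample columns were left unused. The authors' own fit gave the deposited log2 fold change and adjusted p-value, and the authors also made the fold enrichment (a ratio of shares) and p-value of each annotation term, per the file headers; other deposited columns of that fit were not used.

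Changes were tested with limma 3.58.1 (R 4.3.3) (two-sided, trend on, values as log2(value + 1)) over the 15098 genes that averaged 10 or more normalized counts, and called at a Benjamini-Hochberg adjusted p under 0.05, 11.0% of genes tested. Intervals are at 95%. Alternatives were other pseudocounts and filters, TMM, count models fitted to the recovered reads (1655 genes called by edgeR 4.0.16, 2382 by DESeq2 1.42.0), sample quality weights and subsets of libraries. The steps were tested on simulated data. Members that were called, and the member with the smallest p in each role group, are given in every sample. Of other lists, up to 4 called genes with the smallest adjusted p are named by rule. The 7 further called NRF2 partners and targets, and those named that were not called, were named after their values were seen. Members and lists were chosen with earlier results of these data known. Positions and exon lengths are from GENCODE M21 (GRCm38), matched by Ensembl identifier for all 36 members, and start-site windows are from RefSeq (GRCm38.p6). Counts of 50-base windows shared with other transcripts come from GENCODE M21.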

Additional observations from a re-analysis of the deposited data

Results flagged for a closer look

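In 11 of the 68 groups of values of tested members (34 genes in 2 groups), 1 library lay far from the others, its gap to the nearest being larger than Dixon's 95% limit for that number of mice; chance gives about 1 in 20 groups, and 5 of the 11 were in Fed 3. In Fed 3, Keap1 (956 normalized counts, others 1125 to 1177) and Gstm5 (1598, others 1918 to 2012) were low. Also in Fed 3, Txnrd1 (6112, others 4929 to 5220), Gpx3 (325298, others 168310 to 187236) and Sod3 (8387, others 3633 to 4911) were high. In the other fed libraries, Gsta4 was high in Fed 1 (1163, others 415 to 570) and Prdx2 was low in Fed 5 (2263, others 2902 to 3143). In Fasted 2, Txnrd1 (8060, others 6681 to 6804) and Txn2 (1981, others 1422 to 1517) were high. In Fasted 4, Gsta2 (3623, others 2115 to 2329) and Gpx3 (184428, others 156205 to 158780) were high.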

How the results depend on the processing

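Of 20 alternatives, Txnrd1 was called in all 20 and Nqo1 and Txn2 in 19, both short only when the fed group was Fed 4 and 5 alone (adjusted p = 0.117 each). Hmox1 was called in 14, Srxn1 in 13 and Gstt2 in 11, and none of the 6 changed direction. Of the 28 members not called, 24 were not called in any alternative; Nfe2l2 (adjusted p = 0.0319), Txnrd2 (0.0413) and Sod2 (0.0355) were called with sample quality weights. With quality weights 2798 genes were called, 3 members lower and 2 NADPH supply genes. With DESeq2 2 NADPH supply genes and 7 glutathione use and turnover genes were called. Without Fed 3 and Fasted 1 the counts were 1068 genes, 3 members higher and 2 thioredoxin-fold list genes. With Fed 1 to 3 as the only fed mice they were 3 members higher and 2 NADPH supply genes. With Fed 4 and 5 as the only fed mice they were 357 genes, 1 member higher, 0 members lower, 0 NRF2 partners and targets, 1 glutathione gene and 1 thioredoxin-fold list gene; fewer samples enter that fit. Leaving out each library in turn gave 861 to 1956 genes, 2 to 5 members higher, 1 to 3 members lower, 8 to 13 NRF2 partners and targets, 1 to 3 NADPH supply genes, 1 to 5 glutathione genes and 1 to 5 thioredoxin-fold list genes; the cause of these moves was not tested beyond the smaller number of samples. The lowest gene count was without Fasted 4. Slc7a11 and Gstm3 averaged under 10 normalized counts, so the filter left them out of the main test. Whether deeper sequencing would change that was not tested. No paired analysis was possible because the labels give no replicate numbers that pair fed with fasted mice.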
